A study of Homo sapiens with 6 samples.

Results

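The genes of human chromosome 13 were compared between KPL4 cells with and without a knockout of ESR2, which encodes estrogen receptor beta (ERβ). A gene was a member when the array's identifier placed its probe set on chromosome 13 and the platform annotation gave that probe set a single symbol, and the probe set with the highest mean over the 6 arrays stood for the gene. This gave 979 members of 33578 genes on the array. The chromosome was selected on the measured difference between knockout and control signals of its genes, which had already been seen to be lower in the knockout cells. Everything below on that difference is a description, with no test of it, and supports nothing further. KPL4 is an established human inflammatory breast cancer line. Total RNA of 3 control and 3 ERβ knockout samples was labelled with biotin and hybridised to 6 Affymetrix arrays. The knockout was made with CRISPR/Cas9, and both groups were grown in the same F12 medium with fetal bovine serum, HEPES, insulin and hydrocortisone, with no further treatment. Whether a single knockout clone or a mixed population was used, and what the control cells had received, is not in the labels. The arrays of a group are called biological replicates, without a statement that they came from separate cultures, so the spread between them may be technical. Values are log2 signals, and each difference is the knockout mean minus the control mean with its standard error (SE) from limma, with 3 arrays per group. In these bulk samples, fewer cells with a transcript and less of it per cell cannot be told apart.

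Chromosome 13 is acrocentric, with its protein-coding genes on the long arm. It carries RB1, the retinoblastoma tumour suppressor that holds back E2F-driven entry into S phase, and TFDP1, the partner with which E2F proteins bind DNA. It also holds genes of the RNA exosome, of nuclear transport, of ubiquitin ligases and of protein quality control. There are large gene-poor stretches and many processed pseudogenes, which are copies of mRNAs pasted back into the genome. ERβ is a ligand-dependent transcription factor that binds estrogen response elements, an inverted repeat of GGTCA, near its target genes.

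Of the 979 members, 956 were found in RefSeq and 947 of these lay on chromosome 13 there. They comprised 284 protein-coding genes, 379 pseudogenes, 236 long noncoding RNAs (lncRNAs), 27 microRNA hairpins, 20 transcribed pseudogenes and 1 antisense RNA. A gene was called bright when its mean signal lay above 5.05, the median of all tested genes, and 197 of the 284 protein-coding members passed this filter. In 194 of them both group means lay above the limit, in LCP1 and ARL11 only the control mean did, and in EFNB2 only the knockout mean, so these 3 passed through the group in which they were high. Just inside it lay GAS6, with a mean signal of 5.16 and a difference of 0.19. Just outside it lay SLC15A1, at 5.04 with a difference of 0.48. The epithelial markers EPCAM, KRT8, KRT18, KRT19 and ERBB2 had mean signals of 13.9 to 17.5 and CDH1 of 7.81, while the leukocyte and endothelial markers PTPRC, CD3E, PECAM1 and CDH5 lay between 3.97 and 5.42. The fibroblast genes DCN and COL1A1 were at 5.33 and 7.87. The targeted gene ESR2 was dim in all 6 samples, at 3.99, 3.69 and 4.16 in control and 3.90, 4.08 and 4.01 in knockout cells, so its mRNA signal could not check the labels.

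Promoter windows are shown for the lowest bright member, EXOSC8, and for 3 of the members that were higher in knockout cells, ZMYM5, LATS2 and EFNB2, so that genes on either side of the chromosome's shift can be read side by side. Each runs from 250 bases before to 50 after the start that the RefSeq table gives (build GRCh38.p14), 5′ to 3′ on the gene's strand, and capitals mark a matched motif.
EXOSC8 at chr13:37000536-37000835, plus strand: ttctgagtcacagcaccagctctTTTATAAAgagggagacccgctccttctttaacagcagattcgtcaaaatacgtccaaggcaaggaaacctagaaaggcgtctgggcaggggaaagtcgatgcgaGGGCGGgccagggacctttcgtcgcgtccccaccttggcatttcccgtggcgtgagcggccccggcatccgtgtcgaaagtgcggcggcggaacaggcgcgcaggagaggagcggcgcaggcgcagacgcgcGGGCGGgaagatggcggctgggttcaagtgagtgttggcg
ZMYM5 at chr13:19863600-19863899, minus strand: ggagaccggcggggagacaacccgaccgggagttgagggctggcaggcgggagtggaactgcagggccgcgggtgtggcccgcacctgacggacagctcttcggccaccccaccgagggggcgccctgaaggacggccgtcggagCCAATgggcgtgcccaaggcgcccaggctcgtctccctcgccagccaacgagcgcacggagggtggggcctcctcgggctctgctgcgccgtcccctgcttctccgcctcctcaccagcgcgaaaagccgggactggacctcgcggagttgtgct
LATS2 at chr13:21061537-21061836, minus strand: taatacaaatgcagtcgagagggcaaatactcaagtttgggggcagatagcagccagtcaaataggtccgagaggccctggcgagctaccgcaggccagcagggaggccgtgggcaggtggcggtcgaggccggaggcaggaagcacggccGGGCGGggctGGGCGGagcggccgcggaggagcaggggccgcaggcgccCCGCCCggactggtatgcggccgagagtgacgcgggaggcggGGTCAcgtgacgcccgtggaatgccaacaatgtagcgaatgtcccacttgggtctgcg
EFNB2 at chr13:106535613-106535912, minus strand: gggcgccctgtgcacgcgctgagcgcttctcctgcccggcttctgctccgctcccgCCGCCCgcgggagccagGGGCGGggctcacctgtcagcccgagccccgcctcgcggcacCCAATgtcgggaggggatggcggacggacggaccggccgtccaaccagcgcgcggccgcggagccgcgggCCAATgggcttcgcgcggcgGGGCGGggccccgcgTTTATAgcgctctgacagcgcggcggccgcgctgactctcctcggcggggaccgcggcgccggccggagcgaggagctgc

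The motifs were searched on both strands as exact letters. The full estrogen response element was taken as GGTCA followed, after a spacer of any 3 bases, by its reverse complement, and GGTCA alone was searched as 1 arm of it. The TATA box was TATAAA, and the GC box bound by Sp1 was GGGCGG. The site of ETS factors was CCGGAAG, and the box bound by NF-Y was CCAAT. A full element also counts as a match to its arm. The EXOSC8 window held 2 GC boxes and 2 TATA boxes, which overlap on opposite strands. ZMYM5 held 1 CCAAT box. LATS2 held 3 GC boxes and 1 estrogen response arm, and EFNB2 held 3 GC boxes, 2 CCAAT boxes and 1 TATA box.

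The full estrogen response element was in none of the windows of protein-coding members, bright or dim, and in 6 of 15843 protein-coding promoters of the genome (0.0379%). The GGTCA arm was in 29.2% of the windows of members whose 3 knockout arrays all lay below all 3 control arrays and in 28.6% of the windows of members that were not lower, against 35.8% of all promoters and 34.3% of those of bright protein-coding genes of the other chromosomes. The GC box was in 64.2% and 46.4% of these windows, in 58.5% of all promoters and in 67.0% of those bright genes elsewhere. The ETS letters were in 17.5% and 7.14%, against 14.2% and 18.6%, and the 7.14% stands for 2 windows. Windows were available for 120 of the 131 members of the first kind and for 28 of the 33 of the second. Of the second kind, the 14 members nearest the centromere held a GC box in 63.6% of windows and the 19 others in 35.3%. Dim protein-coding members held it in 50.6% and the ETS letters in 2.47%. Members of the first and second kind also differed in median signal, 9.57 and 6.75. Median GC content was 65.8% and 67.7%, against 62.7% in all promoters and 64.7% in those of bright genes elsewhere. The median ratio of observed to expected CpG was 0.88 and 0.83. It was 0.76 in all promoters, 0.83 in those of bright genes elsewhere and 0.56 in dim protein-coding members. These shares are letters in short windows and say nothing of binding.

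The bright protein-coding members were lower in the knockout cells along most of the chromosome. Their median difference was −0.72, with a range of −1.83 to 0.72, whereas bright protein-coding genes of the other chromosomes had a median of 0.07. EXOSC8, CUL4A, EBPL, SPART, TSC22D1, TMTC4, PCID2 and MYCBP2 lay at least 1 log2 unit below the chromosome's median, between −1.83 and −1.74. By limma over all 33578 genes, at a Benjamini-Hochberg adjusted threshold of 0.05, 115 of the 197 were called lower, 8 higher and 74 neither. Over all genes tested, 3.21% were called lower and 4.81% higher, and among bright protein-coding genes of the other chromosomes the shares were 5.92% and 11.2%. All 3 knockout arrays lay below all 3 control arrays for 131 members, and above them for 14. These arrangements held for 10.3% and 14.9% of all genes tested and for 15.3% and 27.1% of bright protein-coding genes of the other chromosomes. Since this contrast chose the chromosome, the shares are given for scale only.

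Set against the mean of the controls, the median over the 197 genes was −0.02, −0.01 and 0.03 on the control arrays and −0.70, −0.67 and −0.71 on the knockout arrays. The 3 knockout arrays therefore carried the shift alike, and in each of them 140 to 148 of the 197 genes lay below all 3 controls. On the same arrays the other chromosomes' median was 0.11, 0.08 and 0.04. The spread within a group, which played no part in choosing the members, was of similar size on and off the chromosome. The median SD was 0.16 in control and 0.14 in knockout cells for chromosome 13, and 0.14 and 0.13 for the other chromosomes. Of the other chromosomes, chromosome 2 had the lowest median, −0.0030 over 819 genes, and chromosome 14 the highest, 0.19 over 385 genes.

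**Figure D1:**
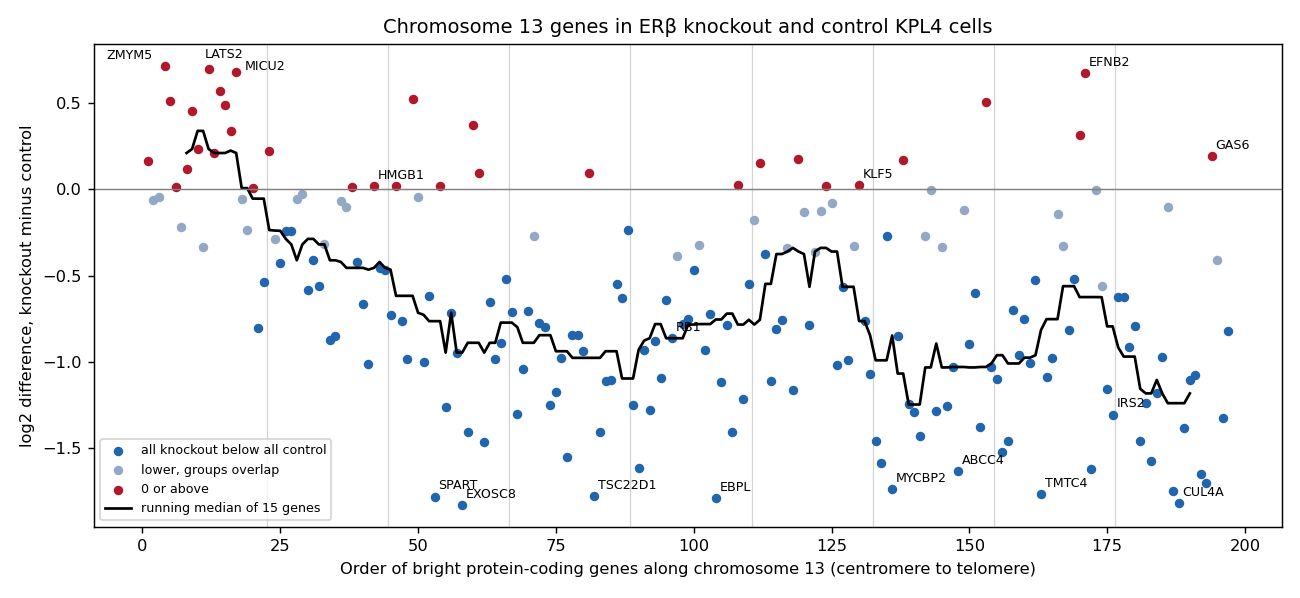
Log2 difference (knockout minus control, 3 arrays each) of 197 bright protein-coding genes, in order along chromosome 13 from the centromere to the telomere; the line is the running median of 15 genes and grey lines part 9 consecutive groups. In the group nearest the centromere, 14 of 22 genes sit at or above 0 and 8 below. Most others lie below 0, with scattered members such as KLF5 (0.02) and EFNB2 (0.67) above it.

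The shift was not even along the chromosome. The 197 genes were cut into 9 consecutive groups of 21 or 22. The group nearest the centromere, TUBA3C to CPAP, had a median of 0.14, with 1 gene called lower and 6 higher. The next, PABPC3 to HSPH1, had a median of −0.37 with 7 called lower, and B3GLCT to COG6 reached −0.75 with 14 called lower.

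The 2 groups from MRPS31 to ERICH6B and from ZC3H13 to WDFY2 had medians of −0.89 and −0.87, with 18 and 16 called lower. From DHRS12 to TBC1D4, in the stretch with several protocadherin genes, the median was again −0.37, with 10 called lower. This group also had the lowest median signal of the 9, 6.98. The last 3 groups had medians of −1.03, −0.89 and −1.10, and 18 of the 21 genes from RAB20 to CHAMP1 were called lower.

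In the group nearest the centromere, the knockout arrays stood at 0.17, 0.13 and 0.09 against the control mean. In the next they stood at −0.35, −0.31 and −0.30, and in the last at −1.18, −0.99 and −1.12. They were least alike from ZC3H13 to WDFY2, at −0.76, −0.90 and −1.03, and from the group before it knockout 1 stood higher there (from −0.98) and knockout 3 lower (from −0.81). In no group but the one nearest the centromere did a knockout array lie above any control array. Leaving that group out, 175 genes remained, with a median of −0.79, 114 called lower and 129 with all knockout below all control arrays.

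**Figure D2:**
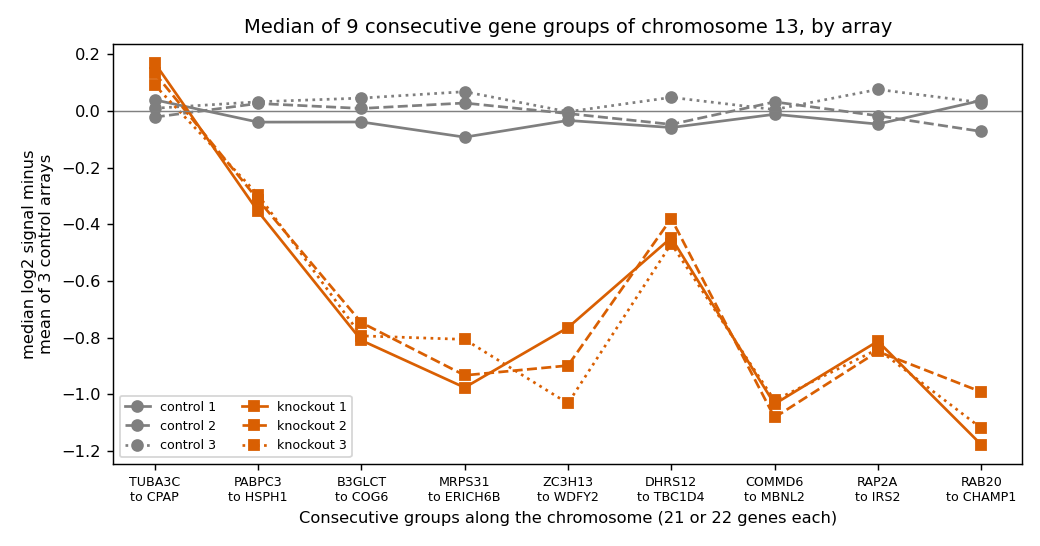
Median log2 signal minus the mean of the 3 control arrays for 9 consecutive groups of 21 or 22 bright protein-coding genes along chromosome 13 (first and last gene named), with 1 line per array. The 3 knockout arrays run from about 0.1 near the centromere to about −1.1 at the telomere, with a rise to −0.37 in the median difference of the DHRS12 to TBC1D4 group.

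The difference also varied with the signal of the probe set. Signals of different probe sets are not amounts of RNA that can be set against each other, so this describes the measurement. In 4 groups of 49 or 50 genes from the dimmest to the brightest, the median differences were −0.14, −0.72, −1.01 and −0.79. Across the 197 genes, which are not independent replicates, Spearman's rank correlation between mean signal and difference was −0.352. The 87 dim protein-coding members had a median of 0.04, and FOXO1 was the only 1 of them called. FOXO1, the transcription factor restrained by insulin signalling, was at 5.30, 4.98 and 5.23 in control and 4.61, 4.57 and 4.72 in knockout cells, a difference of −0.54. Its call was lost in 9 settings, among them leaving out any array but control 2, and a second probe set differed by −0.14.

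**Figure D3:**
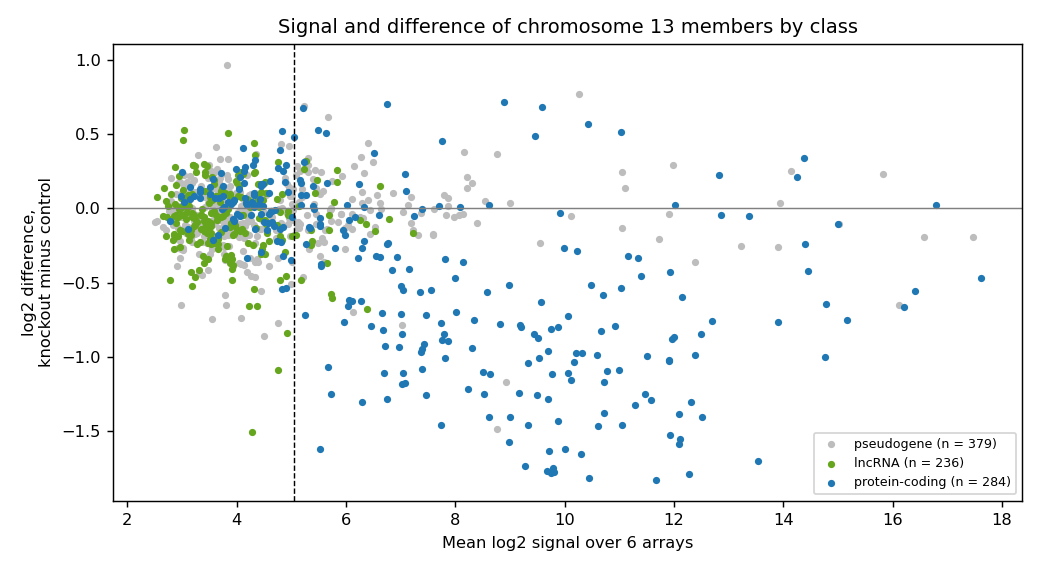
Mean log2 signal over the 6 arrays against the log2 difference (knockout minus control) of pseudogenes, lncRNAs and protein-coding members on chromosome 13; the dashed line is the median signal of all tested genes, 5.05. Protein-coding genes to the right of it spread down to −1.83, while most pseudogenes and lncRNAs lie near 0.

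Among genes of DNA repair, replication and cell division, 17 of 26 bright members (65.4%) were called lower and 2 higher, with a median of −0.79. Over all 197 bright protein-coding members 58.4% were called lower, with a median of −0.72. The counts of each role are to be read beside these values and beside its signal, since the difference varied with signal. The median signal was 10.58 in this role and 8.61 over the 197 genes. CUL4A, the scaffold of a ubiquitin ligase that acts in DNA damage repair and replication licensing, had signals of 11.41, 11.51 and 11.17 in control and 9.50, 9.63 and 9.50 in knockout cells. The groups did not overlap, and the difference was −1.82 (SE 0.13). A second probe set of the gene differed by −0.97.

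TFDP1, the dimerisation partner of E2F factors, was at 14.38, 14.34 and 14.48 in control and at 12.66, 12.75 and 12.69 in knockout cells, a difference of −1.70 (SE 0.12). RB1, which binds and restrains those factors, was at 12.30, 12.60 and 12.39 against 11.52, 11.58 and 11.60, a difference of −0.86 (SE 0.13). Both were lower in every knockout array, and TFDP1 stood further down than RB1. RFC3, a subunit of the clamp loader, was at 15.24, 15.28 and 15.25 in control and 14.34, 14.26 and 14.17 in knockout cells.

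RFC3 thus differed by −0.999. CDC16, a subunit of the anaphase-promoting complex, differed by −1.33, TUBGCP3 of the gamma-tubulin complex by −1.57, and RNASEH2B, a subunit of the enzyme that removes ribonucleotides from DNA, by −1.40. CKAP2, a microtubule protein of the spindle, lay close to the chromosome's median at −0.76. Of this role, LATS2 and SKA3 were called higher and are given below. HMGB1, a chromatin protein with many near-identical copies in the genome, was at 16.80, 16.63 and 16.94 in control and 16.90, 16.82 and 16.71 in knockout cells. Its groups overlapped, and its own transcript cannot be separated here from those copies.

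Genes of transcription, RNA processing and nuclear transport had a median of −0.94 over 38 bright members, with 25 (65.8%) called lower and 2 higher. These genes were also brighter, with a median signal of 10.63 against 8.61 over the 197 genes. EXOSC8, a core subunit of the RNA exosome, was at 12.61, 12.63 and 12.52 in control and 10.72, 10.86 and 10.69 in knockout cells. It was the lowest of the 197 genes, at −1.83 (SE 0.12). DIS3, the exosome's catalytic ribonuclease, was at 11.94, 12.07 and 12.02 against 11.06, 10.69 and 11.32 and differed by −0.99. The knockout arrays of both genes lay wholly below the control arrays.

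TSC22D1, a leucine zipper protein induced by TGF-beta, had signals of 10.66, 10.91 and 10.53 in control and 9.01, 8.95 and 8.81 in knockout cells, a difference of −1.78 (SE 0.14). MYCBP2, a large E3 ubiquitin ligase first found as a MYC-binding protein, was at 10.15, 10.01 and 10.30 against 8.52, 8.43 and 8.30, a difference of −1.74 (SE 0.13). In both genes the lowest control value lay over 1 log2 unit above the highest knockout value. The import receptors IPO5 and KPNA3 differed by −1.52 and −1.12, and both were called lower. XPO4, an export receptor, differed by −0.34 and was not called. PCID2, which takes part in mRNA export and was placed in no role list, was at 10.90, 10.58 and 10.50 against 8.97, 8.80 and 8.97. SMAD9, a transcription factor of BMP signalling, lay at the chromosome's median with −0.72.

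KLF5, a zinc finger factor of proliferating epithelium, was at 12.02, 11.97 and 12.02 in control and at 12.04, 11.99 and 12.04 in knockout cells. Its arrays overlapped almost fully, with a difference of 0.02 (SE 0.12) that became −0.06 after a second quantile normalization, while its neighbours in order differed by −0.33 (PIBF1) and −0.76 (KLF12).

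In the group of transport, metabolism and protein turnover, 40 of 58 bright members (69.0%) were called lower and 2 higher, and the median was −0.76. The median signal of this role was 9.64. EBPL, a homologue of the sterol isomerase EBP, was at 13.14, 13.04 and 13.30 in control and 11.31, 11.27 and 11.55 in knockout cells, a difference of −1.79 (SE 0.14). SPART, the spartin protein of endosomes and lipid droplets, was at 10.52, 10.73 and 10.68 against 8.72, 8.80 and 9.08, a difference of −1.78 (SE 0.14). TMTC4, an O-mannosyltransferase of the endoplasmic reticulum, was at 10.57, 10.48 and 10.65 against 8.88, 8.72 and 8.79, a difference of −1.77 (SE 0.12). None of the 3 genes had overlapping groups.

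ABCC4, an exporter of cyclic nucleotides and drugs, had signals of 10.75, 10.44 and 10.42 in control and 8.91, 9.23 and 8.58 in knockout cells, a difference of −1.63 (SE 0.17). LAMP1, a glycoprotein of the lysosome membrane, was at 12.76, 12.68 and 12.94 against 11.62, 11.28 and 11.33, a difference of −1.38 (SE 0.14). All knockout arrays were below all control arrays in both. UCHL3, a hydrolase of ubiquitin and NEDD8, and DNAJC15, a mitochondrial co-chaperone, differed by −1.59 and −1.55. MRPS31, of the small mitochondrial ribosome subunit, lay near the chromosome's median at −0.71. The chaperone HSPH1 differed by −0.47 and was called lower, and POMP, which assembles the proteasome, differed by −0.10 with overlapping groups.

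Receptors, ligands and signalling genes had a smaller median, −0.54 over 28 bright members, with 12 called lower and 1 higher. They were also dimmer, with a median signal of 6.97 against 8.61 over the 197 genes, and the difference varied with signal. STK24, a kinase of the sterile 20 family, was at 8.37, 8.48 and 8.57 in control and 7.12, 7.04 and 6.88 in knockout cells, a difference of −1.46 (SE 0.13). IRS2, the adaptor that passes insulin and IGF receptor signals on to PI3K, was at 6.90, 7.12 and 6.81 against 5.72, 5.42 and 5.77, a difference of −1.31 (SE 0.14). Both genes had groups that did not overlap, but a second, dimmer probe set of IRS2 differed by 0.13. GAS6, the ligand of the TAM receptors, was at 5.11, 5.18 and 4.90 against 5.27, 5.20 and 5.29 and was not called.

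Matrix, adhesion, cytoskeleton and cilia genes had a median of −0.22 over 15 bright members, with 6 called lower and none higher. This role was dim as well, with a median signal of 6.76 against 8.61 over the 197 genes. LCP1, the actin-bundling plastin of leukocytes, was at 6.22, 6.43 and 6.34 in control and at 4.82, 4.70 and 4.62 in knockout cells, with no overlap. The difference was −1.62 (SE 0.13), but all 3 knockout values lay below the brightness limit of 5.05, so its size rests on a dim group. SLITRK5, a synaptic adhesion protein, differed by −1.29. The connexin genes GJB2 and GJB6 differed by 0.01 and −0.22 and the protocadherins PCDH17 and PCDH20 by −0.13 each, with no call. The collagen IV chains COL4A1 and COL4A2 were dim, with differences of 0.08 and −0.22.

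**Figure D4:**
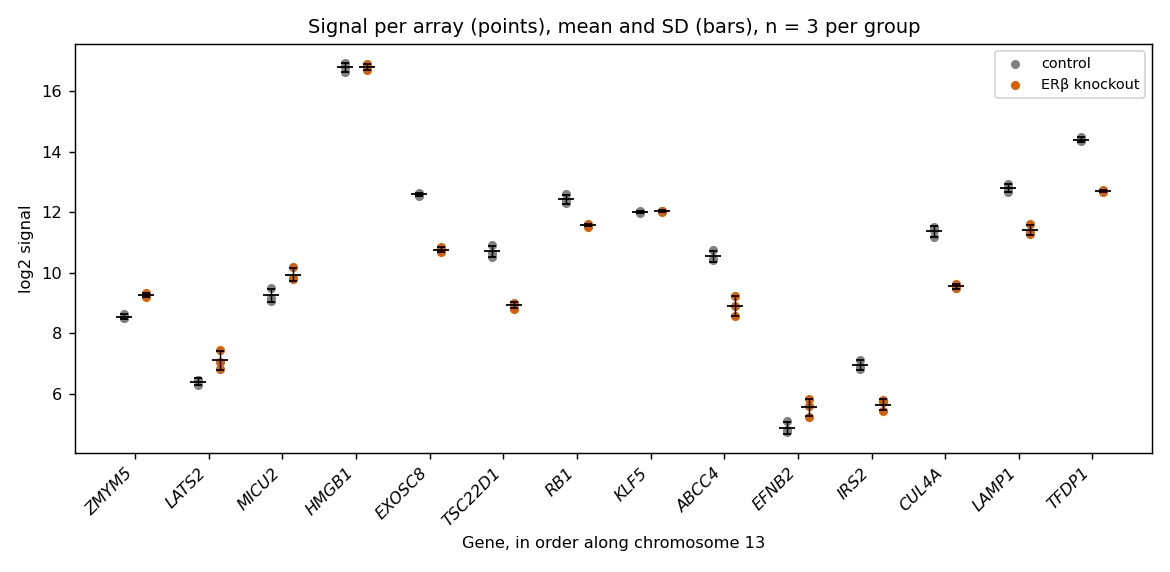
Log2 signal of 14 chromosome 13 genes in order along the chromosome, with control (grey) and ERβ knockout (orange) arrays as points and the mean and SD as bars (3 arrays per group). Signals of EXOSC8, TSC22D1, RB1, ABCC4, IRS2, CUL4A, LAMP1 and TFDP1 are separate and lower in knockout cells, those of HMGB1 and KLF5 overlap, and those of ZMYM5, LATS2, MICU2 and EFNB2 are higher.

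Of the 197 genes, 33 had a difference of 0 or above, and 14 of these lay in the group nearest the centromere. Such a difference was found in 54.0% of all genes tested and in 59.9% of bright protein-coding genes of the other chromosomes. The values nearest this limit were 0.0071 for C1QTNF9B above it and −0.0063 for the least negative gene below it. Of the 8 genes called higher, 6 lay in the group nearest the centromere. With 1 array left out, fewer genes were called higher: 1 without control 1 or knockout 3, 2 without knockout 1, 3 without control 2 or knockout 2, and 5 without control 3.

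ZMYM5, a zinc finger protein of the MYM type, was at 8.49, 8.49 and 8.64 in control and 9.24, 9.32 and 9.20 in knockout cells, the highest difference of the 197 at 0.72 (SE 0.12). LATS2, the Hippo pathway kinase that phosphorylates YAP and TAZ, was at 6.46, 6.28 and 6.46 against 7.05, 6.80 and 7.44, a difference of 0.70 (SE 0.17). MICU2, which regulates the mitochondrial calcium uniporter, was at 9.08, 9.17 and 9.50 against 10.18, 9.79 and 9.83, a difference of 0.68 (SE 0.16). The groups were apart in all 3 genes, with the knockout arrays higher.

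ZMYM2, a chromatin protein that binds corepressor complexes, was at 10.65, 10.70 and 10.97 in control and 11.20, 11.45 and 11.21 in knockout cells. SKA3, of the spindle and kinetochore complex, was at 10.14, 9.89 and 10.43 against 10.83, 10.66 and 10.68. MRPL57, of the large mitochondrial ribosome subunit, was at 9.09, 9.33 and 9.23 against 9.78, 9.67 and 9.67. These 3 differed by 0.51, 0.57 and 0.49, again without overlap. IFT88, needed to build cilia, and the palmitoyltransferase ZDHHC20 differed by 0.46 and 0.34, with the groups apart but no call. In the same group PARP4, a poly(ADP-ribose) polymerase family member, was the only gene called lower, at −0.80.

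Further along the chromosome, 19 of 175 genes had a difference of 0 or above, and their median was 0.15. Their median signal was 5.48, near the brightness limit of 5.05. EFNB2, the ephrin-B2 ligand, was at 4.72, 5.10 and 4.79 in control and 5.23, 5.81 and 5.59 in knockout cells, a difference of 0.67 (SE 0.17). HS6ST3, a heparan sulfate sulfotransferase, was at 5.40, 5.34 and 5.38 against 5.77, 6.02 and 5.86, a difference of 0.51 (SE 0.13). Both were called higher with groups apart, and the EFNB2 control signals lay around the brightness limit of 5.05. KL, the klotho co-receptor of FGF23, differed by 0.52 and SLC10A2, the ileal bile acid transporter, by 0.32, neither with a call. Their mean signals were 5.48 and 5.24, and control 1 lay below the limit in both, at 4.88 and 4.94.

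Of these 19 genes, 4 had a mean signal above 7.998, the upper quartile of all tested genes. They were HMGB1, KLF5, FRY, which takes part in spindle and cell shape control, and PABPC3, an intronless copy of a poly(A)-binding protein. The remaining 93 of 97 genes above that signal outside the group nearest the centromere had differences below 0, and 80 were called lower. PABPC3, with a difference of 0.22, and CSNK1A1L, a casein kinase retrocopy with 0.37, resemble their parent genes elsewhere in sequence, so signal from the parents was not separated. TUBA3C and HNRNPA1L2 have the same limit.

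Neighbours that share a promoter region were examined as pairs. For 10 head-to-head pairs, whose starts lie within 1000 bases on opposite strands, the median gap between the 2 differences was 0.24, against 0.41 for all 196 neighbouring pairs in order. In 6 pairs both genes had all knockout arrays below all control arrays. Taken singly, 131 of the 197 genes had this arrangement, and it was not counted for the 196 neighbouring pairs. LNX2 and POLR1D, an E3 ligase and a subunit of RNA polymerases I and III, differed by −0.88 and −0.85. SKA3 and MRPL57 were both higher, at 0.57 and 0.49. DIS3 and PIBF1 stood further apart, at −0.99 and −0.33.

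At the telomeric end the values changed from gene to gene. F7, coagulation factor VII, differed by −0.10, whereas PCID2, CUL4A and LAMP1 differed by −1.75, −1.82 and −1.38. GRTP1 and DCUN1D2 followed at −1.10 and −1.08, and SLC9D1 and TFDP1 at −1.65 and −1.70. GAS6, also near that limit with a mean signal of 5.16, stood at 0.19. RASA3, a GTPase-activating protein for Ras, stood at −0.41, before CDC16 at −1.33 and CHAMP1, a kinetochore-attachment protein, at −0.82.

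In 12 protein-coding members a second probe set was also bright. The second set lay below 0 in 11 of them and was nearer 0 than the first in all 12. The medians were −1.18 for the first and −0.41 for the second, dimmer sets, so the size of a member's difference depended on the probe set taken.

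Bright pseudogenes on chromosome 13 lay near 0. Their median signal was 6.30, against 8.61 for the bright protein-coding members. The 2 dimmest of the 4 signal groups of those members, at median signals of 5.77 and 7.43, had median differences of −0.14 and −0.72. The 125 bright pseudogenes of both kinds had a median of −0.03. Of them, 4 (3.20%) were called lower and 2 (1.60%) higher, against 3.21% and 4.81% of all genes tested. For 76 of them the gene they are named after was on the array. These pseudogenes had a median of −0.04 and their parents one of −0.05. Across the 72 with a bright parent on another chromosome, Pearson's r between the differences of pseudogene and parent was 0.623, and 0.546 without the FABP5 copies. These points share arrays and sequence, and whether probe sets on processed copies took up the parent's transcript was not tested.

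FABP5P1, named after the fatty acid-binding protein gene FABP5 on chromosome 8, was at 9.71, 9.36 and 9.43 in control and 7.79, 8.02 and 8.25 in knockout cells. Its groups did not overlap and its difference was −1.48, beside −1.13 for FABP5. FABP5P2 differed by −0.78 with overlapping groups and FABP5P4 by 0.13. ZDHHC20P4 differed by 0.36, close to ZDHHC20 near the centromere, and MRPS31P5 by −0.98, beside −0.71 for MRPS31.

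**Figure D5:**
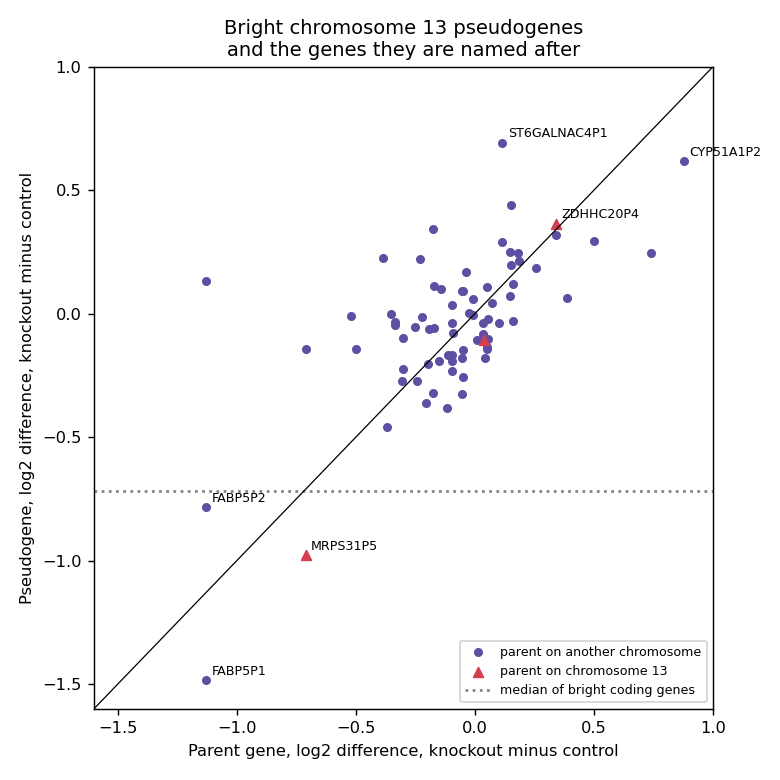
Log2 difference (knockout minus control) of 76 bright chromosome 13 pseudogenes against that of the gene each is named after; the solid line marks equal values and the dotted line the median of the bright coding genes, −0.72. Most points lie around 0 on both axes and away from the dotted line, with the FABP5 copies FABP5P1 and FABP5P2 and MRPS31P5 below.

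Few lncRNAs were bright. The 25 that were had a median of −0.10, and 2 were called lower, both antisense to a coding gene that was lower too. RBM26-AS1 was at 6.61, 6.80 and 6.76 in control and 6.03, 5.90 and 6.20 in knockout cells, a difference of −0.68, beside −1.29 for RBM26, an RNA-binding protein. MCF2L-AS1 differed by −0.57, beside −0.97 for MCF2L. Strand handling is not given in the sources used here, so a gene and its antisense partner may share signal. The dim CLDN10-AS1 was at 5.15, 5.24 and 4.73 against 3.389, 3.216 and 4.002, a difference of −1.50, whereas CLDN10, a claudin of tight junctions, differed by −0.12. DLEU1, a lncRNA of a region often lost in leukaemia, was dim, at −0.46 with overlapping groups.

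MicroRNAs are cut from hairpins, and bases 2 to 8 of the mature strand, the seed, pair with target mRNAs. Of 27 hairpins on the array, 8 were bright and MIR8075 alone was called. The mature sequences of the 2 hairpins with the highest signal are given, from RefSeq (build GRCh38.p14) with the seed in capitals, since 1 of them was lower along with its host gene.
hsa-miR-8075 at chr13:113262966-113262989, plus strand: uGCUGAUGgcagaugucgggucug
hsa-miR-4502 at chr13:114273885-114273906, plus strand: gCUGAUGAugauggugcugaag

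MIR8075 lies within CUL4A on the same strand. It was at 10.55, 9.78 and 10.21 in control and 8.15, 8.43 and 8.82 in knockout cells, so the groups were apart, and its difference was −1.72 (SE 0.21), beside −1.82 for CUL4A. Signal of the hairpin and of CUL4A's own transcript cannot be told apart there. MIR4502 was at 7.04, 7.43 and 6.99 against 6.98, 6.87 and 6.90. Its knockout arrays lay just below its controls, with a difference of −0.23 and no call. The 8 mature strands known for 7 of the bright hairpins had 8 different seeds.

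Most probe sets on chromosome 13 had no listed symbol. Of 3580, 1015 had 1 symbol, 21 several and 2544 none. The 362 bright ones without a symbol had a median of −0.07, and 59 of them (16.3%) had all knockout arrays below all control arrays, against 7.40% of 18543 such probe sets on other chromosomes. The 13 bright ones with several symbols had a median of −0.98 and are named for no gene.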

How the data were processed

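The authors deposited 1 table of log2 signals for 134748 probe sets on 6 arrays. Per the submitters' processing notes, RMA and Transcriptome Analysis Console were used. Tool versions and the build behind the array's annotation are not given in the sources used here, and scanner files were not used here. RMA equalises the arrays, so a shift shared by all genes is removed. Of all values, 0.567% lie above 16, so differences at the top may be altered in size, which was not tested. The number of arrays limits the precision.

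Platform annotation gave 35528 probe sets a single symbol. Probe sets with several symbols were not named. RefSeq (GRCh38.p14) served for gene class, order and sequence. Of the members, 9 lay on another chromosome in RefSeq and 23 were not found in it, and 30 had several probe sets. For 5 members a brighter probe set lay outside chromosome 13, and these were not tested. The remaining 1 probe set per gene entered limma 3.58.1 in R 4.3.3 (lmFit and eBayes, two-sided, Benjamini-Hochberg over 33578 genes, 4 residual and 6.84 prior degrees of freedom), which was tested on simulated data. Both groups entered without covariates.

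Named genes were up to 10 bright coding members called higher, which gave all 8, and the 10 lowest called lower, all without overlap. To these were added others at 0.3 or above and 6 per role list (2 lowest, 2 nearest the median, 2 highest). The first 8 and last 12 in order and genes given by symbol completed them. Further genes in the text were chosen after their values were seen. Members and lists were chosen with earlier results of these data known, and some genes were moved between the 6 role lists or dropped from them after values were seen, so the lists received no test. Alternatives covered normalization, filters, probe sets, moderation, a fold threshold, the replicate number, gene classes and leaving out each array. Same-numbered arrays of the groups did not deviate together (correlations of −0.02, −0.01 and −0.03 over genes).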

Additional observations from a re-analysis of the deposited data

How the results depend on the processing

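The median difference of the bright protein-coding genes, −0.72, was −0.76 after a second quantile normalization, −0.66 with the mean of a gene's probe sets, −0.32 with no filter on dim genes, −0.94 above the upper quartile of signal and −0.20 over all bright classes, and it lay between −0.75 and −0.66 when 1 array at a time was left out. The 115 genes called lower became 58 with an unmoderated test and 99 to 107 with 1 array left out. They became 84 with all probe sets tested. An intensity trend with robust moderation gave 123 lower and 9 higher. The 8 called higher became 5 after a second quantile normalization, 2 with the unmoderated test, 1 with all probe sets tested, 5 above the upper quartile and 1 to 5 with 1 array left out. Limma's treat at a fold change of 1.2 called 0 higher and 81 lower. With the replicate number as a block, 4 were called higher and 111 lower, but the labels do not say what a number marks. The 33 genes at 0 or above were 87 with no filter, 12 above the upper quartile, 99 over all bright classes and 30 to 35 with 1 array left out. They were 27 after a second quantile normalization. No called named gene changed sign in any setting. Some uncalled named genes did. After a second quantile normalization KLF5 stood at −0.064 and GJB2 at −0.032. With 1 array left out, MPHOSPH8 ranged from −0.152 to 0.0010, PSPC1 from −0.073 to 0.0003, GJB2 from −0.117 to 0.103, DLEU2 from −0.064 to 0.138, MIR622 from −0.251 to 0.182, COL4A1 from −0.0049 to 0.228 and F7 from −0.204 to 0.017. The calls of SKA3, ZMYM2, MRPL57 and HS6ST3 were lost in 10 settings each, LATS2 in 8, EFNB2 and MICU2 in 7 and ZMYM5 in 1, and FOXO1's call lower was lost in 9. The lowest running median, −1.25 over 15 genes, was −1.38 over 9 and −1.16 over 25. Array number, dim probe sets and unknown probe cross-matches limit single genes, and no depth is defined for arrays.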
